A study of Nematostella vectensis with 4 samples.

Results

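*Nvnanos* (gene NV2g000437000.1) was 1 of 24526 genes counted in single cells of the sea anemone *Nematostella vectensis*. The gene and the classes of cells in which it was read were chosen by its measured levels in these libraries, so those levels are a description and carry no test. Whole embryos, for which the labels name no treatment, were taken at 24 h post fertilization, the gastrula stage, and dissociated as 1 pool. The 4 technical replicate libraries were made from that pool by 3′ droplet capture (10x Genomics), where a random tag on every captured transcript, the unique molecular identifier (UMI), lets PCR copies be counted once. The spread between libraries is therefore technical, and differences between embryos or spawnings were not measured.

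Nanos proteins are zinc finger proteins that act with Pumilio proteins to repress the translation of messenger RNAs, and they are best known from germ cells and stem cells. Cnidarians make neurons and cnidocytes, the stinging cells, from progenitor cells that express bHLH transcription factors of the atonal and achaete-scute families. In this study's list of marker genes *Nvnanos* stands with the progenitor genes *Nvath-like*, an atonal-related gene, and *Nvmyc1*, a member of the Myc family. *NvLWamide* encodes a neuropeptide precursor and marks neurons, as do *Nvelav*, which encodes an RNA-binding protein, and the achaete-scute gene *NvashA*. *Nvncol1* and *Nvncol3* encode minicollagens of the cnidocyte capsule.

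The libraries held 22980631 to 56880930 UMIs. Of 18779 barcodes, 16089 had at least 500 genes and were used, with a median of 2267 UMIs per barcode in replicate 4 and 4986 to 6555.5 in the others. The number of barcode sequences that occurred in more than 1 library was 38. Levels are given in CPM, the UMIs of a gene per 1000000 UMIs of the same cells. Doublets were not called, and cells with markers of more than 1 type may be doublets, which was not tested.

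*Nvnanos* was a gene of low abundance. It had 1430 UMIs in 810 of the 16089 cells (5.03%) and ranked 9299 of 23642 detected genes by total UMIs. Its level over all cells was 9.07, 10.0498, 10.3 and 9.65 CPM in replicates 1 to 4, with a mean of 9.76 ± 0.524 (SD, n = 4). The libraries thus differed little in the overall level, although their depth did differ. Among the 810 cells, 522 had a single *Nvnanos* UMI (64.4%), 151 had 2, 137 had 3 or more, and the highest count in a cell was 16. Cells with the transcript were deeper, with a median of 9839 UMIs against 3467 in cells without it. Detection in a cell therefore moved with depth, and every cell was next thinned to 1000 UMIs drawn at random, which 14172 cells reached. After thinning, 186 *Nvnanos* UMIs in 170 cells remained, so single classes rest on few counts. Just outside the limit of 500 genes, the 1779 barcodes with at least 400 and under 500 genes held 15 *Nvnanos* UMIs (12.5 CPM pooled), and just inside it the 1510 with at least 500 and under 600 genes held 18 (13.8 CPM).

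The highest level among the classes with more than 35 cells was in cells with a UMI of *Nvath-like* or *Nvmyc1*. In these 630 thinned cells *Nvnanos* stood at 80.9, 26.3, 133 and 47.4 CPM in replicates 1 to 4 (mean 72.0 ± 46.7, SD, n = 4; 41 UMIs). All 4 libraries were above their own level in the cells without any class marker, by 2.60- to 12.0-fold. When all UMIs of the same 630 cells were counted, an alternative chosen after seeing the data, the values drew together to 56.5, 52.1, 64.2 and 42.8 CPM (53.9 ± 8.92; 330 UMIs).

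Cells with *NvLWamide* and no progenitor marker came next. The 575 thinned cells had 33.9, 53.3, 0 and 31.3 CPM (29.6 ± 22.1; 18 UMIs), so replicate 3 had none. From all UMIs of these cells the level was 20.0, 28.0, 16.8 and 38.6 CPM (25.8 ± 9.73; 123 UMIs), and all 4 libraries were above the cells without class markers by 2.51- to 5.25-fold. The ranges of the progenitor-marker and *NvLWamide* cells overlapped between libraries at 1000 UMIs and did not overlap when all UMIs of the same cells were counted. When the classes, too, were set on all UMIs, the levels were 23.1, 24.7, 27.7 and 21.3 CPM (24.2 ± 2.70; 1867 cells) and 11.3, 15.3, 6.58 and 24.1 (14.3 ± 7.45; 971 cells). The ranges then overlapped again, and in replicate 4 the *NvLWamide* cells were the higher.

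Cells with both kinds of marker were few. At 1000 UMIs there were 35, with 5, 3, 2 and 25 in replicates 1 to 4, and they held 2 *Nvnanos* UMIs. Their levels of 0, 0, 500 and 40 CPM gave a mean of 135 ± 244, in which the 500 was 1 UMI in 2 cells. From all UMIs replicate 3 again stood alone, at 458 CPM, and the other libraries had 31.3, 0 and 34.5. No order can be read from these 35 cells. With classes set on all UMIs 281 cells had both kinds of marker, at 13.4, 9.58, 24.0 and 16.0 CPM (15.7 ± 6.13, from 147 UMIs). That was below the progenitor-marker cells of the same setting in 4 of 4 libraries. By share of cells with an *Nvnanos* UMI the order was the reverse, with 31.9%, 25.9%, 39.4% and 23.5% in replicates 1 to 4. The progenitor-marker cells had 23.2%, 21.5%, 26.6% and 19.2%. The cells with both were deeper, with a median of 18060 UMIs against 8340.

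Cells with *Nvncol1* lacked *Nvnanos* at 1000 UMIs. None of the 225 cells had a UMI, which allows a share of cells with a UMI of up to 1.33% (3 counts, counting error only). From all UMIs 10 were found in 6 of these cells, at 4.28, 5.96, 8.83 and 3.02 CPM (5.52 ± 2.52). The range included that of the cells with none of the class markers, 6.11, 7.89, 6.68 and 7.36 CPM (7.01 ± 0.780), so these classes did not differ beyond their spread.

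The 12707 cells without a class marker had 10.3 ± 1.71 CPM at 1000 UMIs. They nevertheless held 67.2% of the thinned *Nvnanos* UMIs (125 of 186), against 22.0% in progenitor-marker cells and 9.68% in *NvLWamide* cells. They made up 90.2% of the cells, but their *Nvnanos* UMIs were not spread evenly over them, as the split by cluster below shows. By share of cells with a UMI at 1000 UMIs, the classes had 6.15% ± 3.65 (progenitor markers), 2.30% ± 1.56 (*NvLWamide*), 0% (*Nvncol1*) and 0.921% ± 0.160 (none), in the same order as the CPM.

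**Figure D1:**
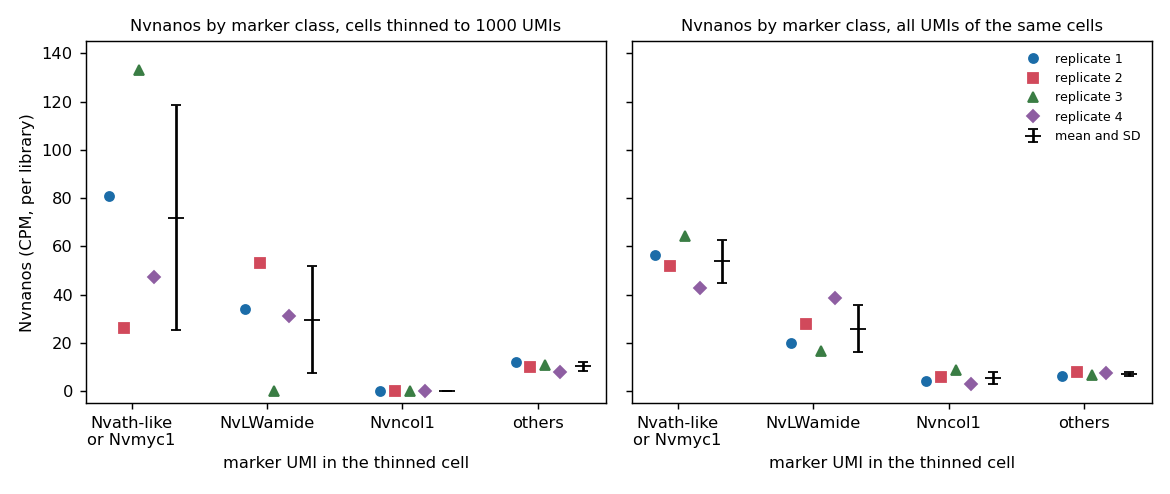
*Nvnanos* level (CPM, vertical axis) in 4 classes of cells (horizontal axis), with 1 point per library and the mean and SD over 4 libraries in black. The left panel counts cells thinned to 1000 UMIs, the right panel all UMIs of the same cells, where the 4 progenitor-marker values lie between 42.8 and 64.2 CPM, above the 4 *NvLWamide* values. Cells with both markers (35 cells) are not drawn.

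Taken marker by marker, cells with *Nvath-like* had 60.5 ± 11.02 CPM of *Nvnanos* from all UMIs and cells with *Nvmyc1* had 56.4 ± 19.4. Cells with only the one or only the other had 53.0 ± 11.9 and 45.1 ± 13.5, ranges that overlapped. The 38 cells with both *Nvath-like* and *Nvmyc1* had 381, 126, 105 and 45.9 CPM (164 ± 148), with 47 UMIs, and replicate 4 lay among the values of cells with a single marker. At 1000 UMIs the cells with both genes had 233 ± 90.2 CPM (9 UMIs), those with *Nvath-like* only 85.9 ± 71.0 and those with *Nvmyc1* only 24.9 ± 17.4.

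Among the neuronal markers, *Nvnanos* was higher in cells with *NvashA* than in cells with *NvLWamide* and without *NvashA*. The 372 *NvashA* cells had 54.9, 51.1, 32.97 and 61.8 CPM from all UMIs (50.2 ± 12.3), and leaving out those with a progenitor marker kept the level at 54.1 ± 14.1. The 422 cells with *NvLWamide* and without *NvashA* had 18.2, 8.65, 18.9 and 21.2 CPM (16.7 ± 5.53), below the *NvashA* cells in all 4 libraries. *Nvelav* cells had 21.1, 56.6, 33.2 and 31.6 CPM (35.6 ± 15.0), which overlapped the range of the *NvashA* cells. At 1000 UMIs the *Nvelav* cells had 94.5 ± 50.2 CPM and the *NvashA* cells 85.4 ± 41.2. From all UMIs, cells with *Nvncol3* had 11.6, 17.6, 11.9 and 10.04 CPM (12.8 ± 3.32). The 7227 cells with none of the listed markers had 5.16, 6.15, 5.75 and 6.87 (5.98 ± 0.715). The *Nvncol3* cells were the higher in all 4 libraries, also at 1000 UMIs (20.0 ± 5.26 against 8.14 ± 1.06). Cells of other kinds had, from all UMIs, 8.93 ± 3.09 CPM with the trunk ectoderm ligand gene *Nvwnt2*, 8.61 ± 9.15 with the gland gene *Nvmucin* and 2.61 ± 1.70 with the mesoendoderm gene *NvsnailA*.

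A single UMI of a marker misses many cells of a type, so the cells were also clustered, with *Nvnanos* and the other listed markers left out of the clustering. The 15780 cells with at most 10% mitochondrial UMIs fell into 20 clusters, numbered by size. Among the clusters with more than 42 cells, *Nvnanos* was highest in cluster 9 (696 cells). From all UMIs its level there was 107, 99.0, 125 and 95.6 CPM in replicates 1 to 4 (107 ± 13.2; 557 UMIs). All 4 values were above every value of clusters 10 and 13. In cluster 9 *Nvath-like* was 12.9-fold and *Nvmyc1* 9.11-fold higher than in all other cells and *Nvnanos* 17.3-fold higher, whereas *Nvelav* (0.883-fold), *NvashA* (0.853-fold) and *NvLWamide* (0.361-fold) were not. With only 2 markers besides *Nvnanos* itself the cluster is given no cell type name.

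Cluster 10 (619 cells) carried the neuronal markers, with *Nvelav* 25.5-fold, *NvashA* 57.4-fold and *NvLWamide* 93.1-fold higher than in all other cells, and is called neuron-like. Its *Nvnanos* level was 58.7, 41.9, 32.4 and 52.0 CPM (46.2 ± 11.5, from 188 UMIs), which was 5.67-fold that of all other cells. In replicate 1, 16 of the 65 UMIs came from 1 cell. The progenitor genes differed less: *Nvath-like* was at 0.787-, 1.65-, 1.62- and 1.18-fold in replicates 1 to 4 and *Nvmyc1* at 0.710-, 0.413-, 1.02- and 0.598-fold. Against the clusters other than 9, 10 and 19, *Nvath-like* had 45.9 CPM in cluster 10 to 25.6 CPM, and *Nvmyc1* 17.8 to 19.9 CPM. The 519 thinned cells of cluster 10 without a UMI of either gene had 44.5 ± 14.5 CPM of *Nvnanos* from all UMIs.

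The 14423 cells outside clusters 9, 10 and 19 had 3.59, 4.83, 5.03 and 5.28 CPM (4.68 ± 0.754; 645 UMIs). Against them cluster 9 was 29.8-, 20.5-, 24.9- and 18.1-fold higher and cluster 10 was 16.4-, 8.68-, 6.44- and 9.84-fold higher in replicates 1 to 4, and cluster 9 exceeded cluster 10 in each library by 1.82- to 3.86-fold. At 1000 UMIs cluster 9 had 130 ± 34.5 CPM and cluster 10 had 79.7 ± 23.8, where each cell weighs the same. Clusters 9 and 10 together held 52.5% of the *Nvnanos* UMIs in 8.33% of the cells.

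**Figure D2:**
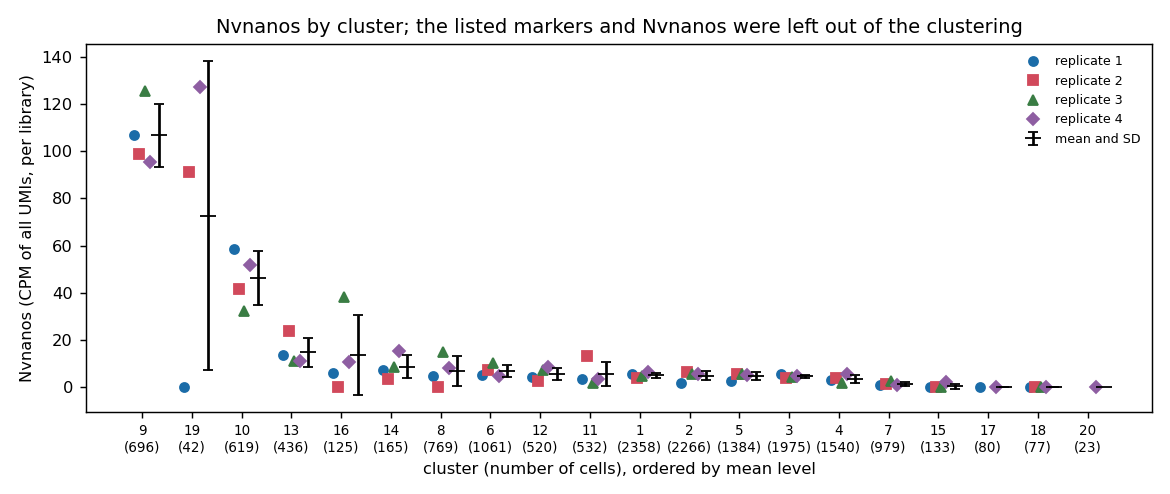
*Nvnanos* level (CPM of all UMIs, vertical axis) in 20 clusters ordered by their mean (horizontal axis, number of cells in parentheses), with 1 point per library and the mean and SD in black. Cluster 9 (107 CPM) and cluster 10 (46.2 CPM) stand above clusters of similar size, and cluster 19 has 42 cells, 40 of them in replicate 4.

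Cluster 19 cannot be placed in this order. It had 42 cells, 40 of which came from replicate 4 and none from replicate 3, and its level was 0, 91.2 and 127 CPM in replicates 1, 2 and 4 (28 UMIs). Pooled over libraries, 45.2% of its cells had an *Nvnanos* UMI, against 38.6% in cluster 9. Of the neuronal genes *NvLWamide* (7.49-fold), *NvashA* (5.91-fold) and *Nvelav* (3.18-fold) were higher in it than in other cells. So were *Nvmyc1* (3.40-fold), *Nvath-like* (2.22-fold) and *Nvwnt2* (2.39-fold), whereas *Nvncol3*, *Nvncol1*, *NvsnailA* and *Nvmucin* were lower. Replicate 1 and replicate 2 gave 1 cell each. Cluster 13, in which *Nvncol3* was 3.65-fold higher, followed cluster 10. From all UMIs it had 13.7, 24.0, 11.01 and 11.07 CPM (14.9 ± 6.18), with all values below those of cluster 10. At 1000 UMIs it had 85.7, 90.9, 0 and 10.3 CPM (8 UMIs), and cluster 10 had 103, 84.5, 84.7 and 46.6. At that depth the ranges overlapped, and replicate 2 was higher in cluster 13. From all UMIs the remaining clusters had means of 13.7 CPM or less, with ranges that overlapped one another in the middle of the order. Cluster 11, in which *Nvncol1* was 96.2-fold higher, had 5.63 ± 5.21 CPM and 0 of 522 cells with a UMI at 1000 UMIs, which allows up to 0.575% (3 counts). Clusters 17, 18 and 20 (80, 77 and 23 cells) had no *Nvnanos* UMI.

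Free RNA in droplets can give a UMI to a cell that does not express the gene. In cluster 7, marked by *NvsnailA* (8.81-fold over the rest), 2.45% of 979 cells had an *Nvnanos* UMI at a median of 24805 UMIs per cell, and the level was 1.502 ± 0.762 CPM. The share was 38.6% in cluster 9 at a median of 6206 UMIs and 14.5% in cluster 10 at 2488, far above cluster 7 despite the lower depth. In the clusters other than 9, 10 and 19 the share was 2.95%, near that of cluster 7 but in shallower cells, and the level there was 4.68 CPM. Among them cluster 14 had 13.9% (8.73 CPM, median 7175 UMIs) and cluster 13 had 6.65% (median 2061.5 UMIs). The part of free RNA in these values was not tested. Cells with several UMIs followed the same pattern: 46.8% of the positive cells of cluster 9 and 43.3% of those of cluster 10 had 2 or more, against 26.8% outside clusters 9, 10 and 19. The positive cells outside them were also deeper, with a median of 20235 UMIs against 7805 in cluster 9. Of the 49 clustered cells with 5 or more UMIs, 29 were in cluster 9 and 7 in cluster 10.

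**Figure D3:**
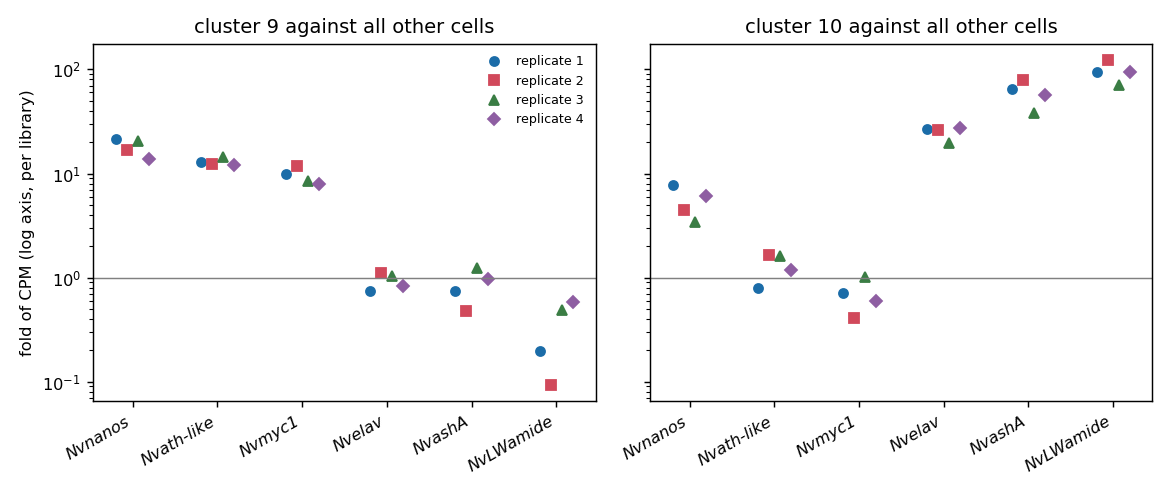
Fold of the CPM in cluster 9 (left) and cluster 10 (right) over all other cells (vertical axis, log scale), for *Nvnanos*, the progenitor genes and the neuronal genes (horizontal axis), with 1 point per library. *Nvnanos* is above 1 in all 4 libraries in both clusters, whereas the progenitor genes are high in cluster 9 and the neuronal genes in cluster 10.

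Cluster membership separated cells that the single markers had put together. Of the 630 progenitor-marker cells 32.2% were in cluster 9, where *Nvnanos* stood at 144 ± 26.3 CPM from all UMIs (203 cells, 218 UMIs). The 411 progenitor-marker cells in clusters other than 9, 10 and 19 had 19.1, 20.3, 29.1 and 21.9 CPM (22.6 ± 4.49). Of the 575 *NvLWamide* cells 62.1% were in cluster 10, with 35.1 ± 13.4 CPM, and the 181 in the clusters other than 9, 10 and 19 had 7.56 ± 5.43. In both classes the cells outside the matching cluster were below those inside it. The cells without class markers split in the same way, with 93.1 ± 10.4 CPM for 433 cells of cluster 9, 75.6 ± 62.8 for 161 cells of cluster 10 and 2.83, 4.32, 3.84 and 4.61 CPM (3.90 ± 0.781) for 11862 cells of the other clusters. In those other clusters the progenitor-marker cells were above the cells without class markers in 4 of 4 libraries. Of the 115 thinned *Nvnanos*-positive cells without a class marker, 51 were in cluster 9 and 13 in cluster 10. Of the 125 thinned *Nvnanos* UMIs of this class, 57 were in the 433 cells of cluster 9 and 17 in the 161 cells of cluster 10. The 11862 cells of the other clusters held 44.

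Within cluster 9, cells with an *Nvath-like* or *Nvmyc1* UMI had 147, 117, 178 and 132 CPM of *Nvnanos* from all UMIs (144 ± 25.8), and cells without had 87.2, 92.5, 100.231 and 84.2 (91.0 ± 7.03). The ranges did not overlap. At 1000 UMIs, with 83 *Nvnanos* UMIs in the cluster, the levels were 128 ± 49.7 and 130 ± 37.0, so the difference was not seen at that depth. These genes belong to the rule that chose the classes, and no test was made.

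Within cluster 10, cells with *NvashA* had 94.3, 53.9, 54.7 and 77.8 CPM (70.2 ± 19.5; 245 cells, 112 UMIs) and cells without had 25.7, 35.1, 18.97 and 35.9 (28.9 ± 8.08; 304 cells, 68 UMIs). The level was higher with *NvashA* in 4 of 4 libraries, by 1.54- to 3.67-fold, and the ranges did not overlap. The split was chosen after the values had been seen, and no test is given. *Nvelav* split the cluster less evenly, with 60.2 ± 34.9 CPM in cells with it and 42.1 ± 21.4 in cells without, higher in 3 of 4 libraries. *Nvncol3* gave 87.8 ± 96.8 and 43.8 ± 13.2 and was higher in 1 of 4.

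Depth moved with the *NvashA* difference, and single cells can weigh on these levels. In replicate 1, 1 cell held 16 of the 65 *Nvnanos* UMIs of cluster 10. Median UMIs were 3502 with *NvashA* and 2717 without. At 1000 UMIs the level was 125, 158, 143 and 40.7 CPM with *NvashA* and 73.2, 0, 32.3 and 50.3 without, so replicate 4 went the other way. *NvLWamide* divided the cluster differently: cells with it had 29.2, 40.1, 27.5 and 51.3 CPM and cells without had 167, 44.5, 30.9 and 56.5, higher without *NvLWamide* in 4 of 4 libraries, with ranges that overlapped and replicate 1 alone at 167. At 1000 UMIs the levels were 58.8, 80.0, 23.3 and 45.7 CPM with *NvLWamide* and 207, 95.2, 250 and 48.5 without.

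**Figure D4:**
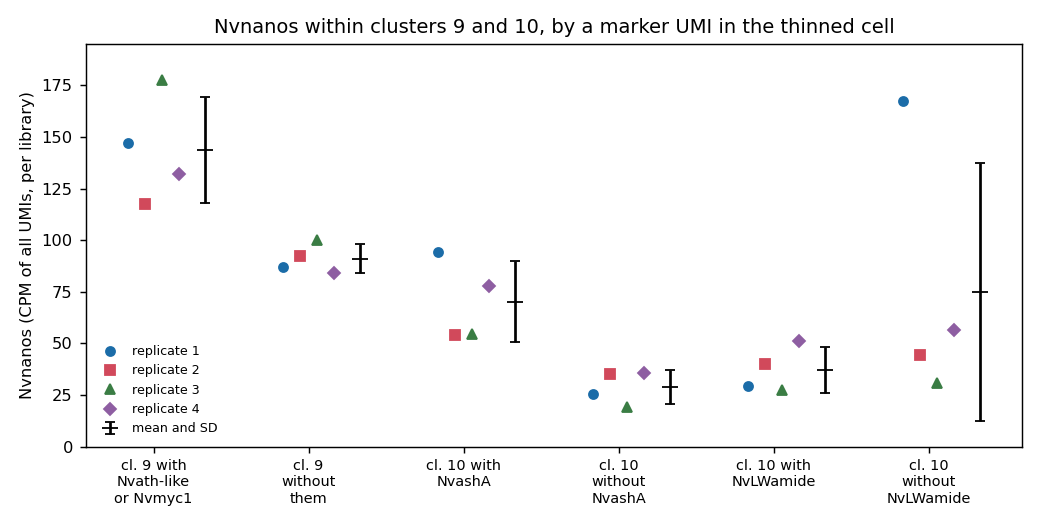
*Nvnanos* level (CPM of all UMIs, vertical axis) inside cluster 9 and cluster 10 (cl. in the labels), split by a marker UMI in the thinned cell (horizontal axis), with 1 point per library and the mean and SD in black. Cells of cluster 10 with *NvashA* lie between 53.9 and 94.3 CPM and those without between 18.97 and 35.9.

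The genes whose pattern was most like that of *Nvnanos* were sought over 61 points, each a cluster in a library with at least 20 cells, by the Pearson correlation of log2(CPM + 10) among 15096 genes with at least 200 UMIs. The points of a library share its depth, so this is a description. NV2g014445000.1 came first (r = 0.860), with 24.0 CPM in cluster 9, 10.3 in cluster 10 and 2.32 in the clusters other than 9, 10 and 19. NV2g004477000.1 came second (r = 0.847), with 194, 241 and 27.3 CPM. These genes held the first 2 ranks when any 1 library was left out. *Nvath-like* ranked 20 (r = 0.675) and *Nvmyc1* 43 (0.620), ahead of *NvashA* at 71 (0.570), *Nvelav* at 93 (0.548) and *NvLWamide* at 269 (0.453). Without replicate 4 the ranks were 11 for *Nvath-like* and 31 for *Nvmyc1*, and 208, 200 and 862 for the neuronal genes in the same order.

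Which other genes differed with *Nvnanos* was tested by summing, in each library, the thinned cells with an *Nvnanos* UMI (52, 29, 25 and 64 cells) and those without. With edgeR's quasi-likelihood test and Benjamini-Hochberg adjustment, 90 of 9626 genes were higher (0.935%) and 207 lower (2.15%) in *Nvnanos*-positive cells at an adjusted p under 0.05. The median log2 fold change of all genes was -0.40, against which single changes are to be read, and it was -0.23 with RLE size factors and -0.22 with DESeq2. The split moved with the scaling, to 101 higher and 129 lower with RLE and 167 and 111 with DESeq2. When replicate 1, 2, 3 or 4 was left out, 175, 136, 140 and 231 genes were lower.

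The neuronal markers *NvashA* and *Nvelav* were higher in *Nvnanos*-positive cells of this draw. *Nvnanos* and the classes were chosen by its levels in these libraries, and both genes were high with *NvLWamide* in cluster 10. There *NvashA* was 57.4-fold and *Nvelav* 25.5-fold over all other cells. Their p-values therefore cannot show, independently of that choice, that *Nvnanos* goes with neuronal markers. *NvashA* had 308, 242, 80.1 and 141 CPM in positive and 38.2, 31.8, 37.0 and 46.4 CPM in negative cells, higher in 4 of 4 libraries (log2 fold change 2.09, SE 0.35, edgeR adjusted p = 0.000479). *Nvelav* had 96.3, 207, 240.327 and 156 CPM in positive and 28.7, 22.1, 31.2 and 33.9 in negative cells (2.18, SE 0.35, adjusted p = 0.000347). The call of *Nvelav* was lost when the cells were thinned with another random draw (1.15, adjusted p = 0.21), and at 500 UMIs its direction turned (-0.38, adjusted p = 0.823).

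Of the 7 listed markers that the class rule did not use, *NvashA* and *Nvelav* rose, 3 fell and 2 did not pass the threshold. *Nvmucin* fell, with 19.3, 0, 40.1 and 0 CPM in positive and 72.3, 94.4, 92.5 and 73.7 in negative cells (log2 fold change -3.07, SE 0.67, edgeR adjusted p = 0.00771), a call lost with DESeq2 (adjusted p = 0.0667) and in cells with at least 1000 genes (adjusted p = 0.0568). *Nvncol3* fell from 2013, 1835, 1826 and 2353 CPM to 655, 1346, 200.272 and 1017 (-1.57, SE 0.27, adjusted p = 0.000572), but not when all UMIs of the same cells were summed (-0.28, adjusted p = 0.858), and the share of cells with an *Nvncol3* UMI was 30.6% in positive and 22.0% in negative cells. NV2g011441000.1 had a log2 fold change of -2.25 (SE 0.60, adjusted p = 0.0359), which lost its call with another draw (-0.78), with DESeq2, with RLE and without replicate 1, 3 or 4, and reversed with all UMIs (0.23). *Nvwnt2* (-0.77, adjusted p = 0.112) and *NvsnailA* (-1.72, adjusted p = 0.324) were not called.

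The markers that define the classes are given without a p. *Nvath-like* had a log2 fold change of 2.68 (SE 0.32), *Nvmyc1* of 2.12 (SE 0.41) and *NvLWamide* of 1.39 (SE 0.31). *NvLWamide* had 347, 552, 40.1 and 485 CPM in positive against 108, 104, 105 and 164 in negative cells, so replicate 3 went the other way. *Nvncol1* had no UMI in any positive cell and 25.8 CPM in negative cells, which is at least 1.46-fold lower at a floor of 3 counts over the positive cells of this draw. With another draw its log2 fold change was -0.96.

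**Figure D5:**
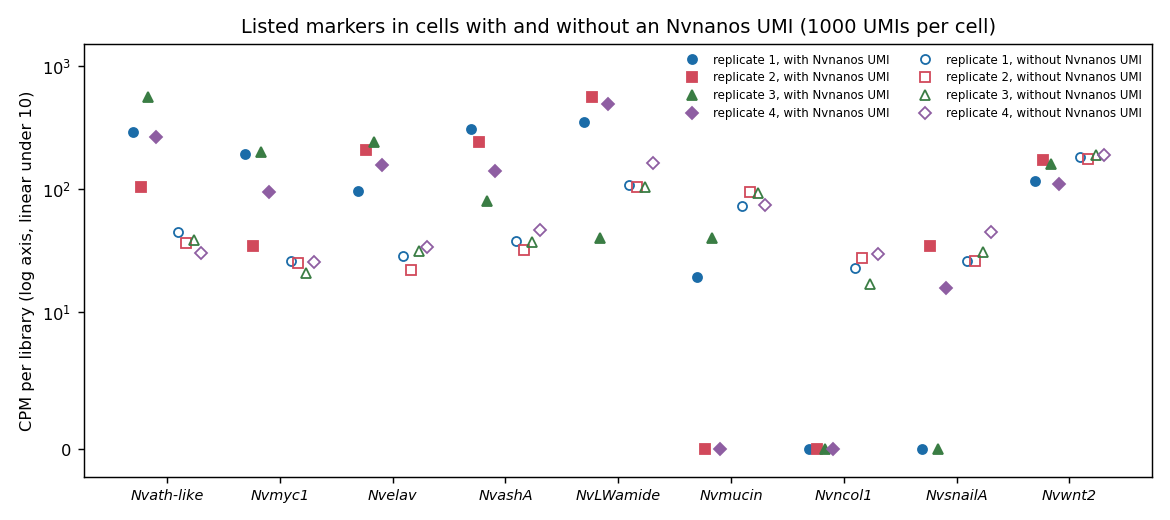
Level of 9 listed markers (CPM, vertical axis, log scale that is linear under 10) in thinned cells with an *Nvnanos* UMI (filled) and without (open), with 1 point per library. Positive cells are above negative cells in 4 of 4 libraries for *Nvath-like*, *Nvmyc1*, *Nvelav* and *NvashA*, and *Nvncol1* is at 0 in all 4 sums of positive cells.

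Genes without a name led the list. NV2g012676000.1 had 270, 104, 200.272 and 250.254 CPM in positive and 8.29, 10.9, 13.6 and 19.3 in negative cells (log2 fold change 3.76, SE 0.41, edgeR adjusted p = 1.72e-06), and its level was 272 CPM in cluster 10 against 11.1 in cluster 9. NV2g012938000.1 rose most (5.53, SE 0.76, edgeR adjusted p = 4.25e-05), but its 92 UMIs came from 8 of the 170 positive cells, with 28 in 1 cell. It stood at 160 CPM in cluster 10 and 0.187 in cluster 9. In the clusters other than 9, 10 and 19, NV2g012676000.1 had 3.34 CPM and NV2g012938000.1 had 0.801. Both are thus genes high in cluster 10, as *NvashA* and *Nvelav* are. Their p-values, too, cannot show an association with *Nvnanos* independently of how *Nvnanos* and the classes were chosen. NV2g009309000.1 and NV2g014988000.1 fell most and had no UMI in positive cells, against 99.5 and 77.0 CPM in negative cells, at least 5.64- and 4.36-fold lower at a floor of 3 counts in this draw. The bound of NV2g009309000.1 did not hold beyond the draw: its log2 fold change was -1.77 with another draw (adjusted p = 0.0326), -0.73 at 2000 UMIs (adjusted p = 0.0957) and -0.50 with all UMIs of the same cells (adjusted p = 0.273). With all UMIs NV2g014988000.1 fell (-4.08, adjusted p = 0.00373).

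Of the 170 *Nvnanos*-positive cells 61.2% were in clusters 9 and 10, so the contrast also compares clusters. Within cluster 9, an alternative chosen after seeing the data, 74 positive and 577 negative cells gave 0 calls among 885 genes tested. At an unadjusted edgeR p under 0.05, 28 were higher and 22 lower. With so few positive cells, 0 calls do not show that no gene differed. In cells outside clusters 9, 10 and 19, 1 gene was higher and 205 were lower, with the median of all genes at -0.88 and only 8 positive cells in each of replicates 2 and 3. The comparisons inside progenitor-marker and *NvLWamide* cells, here with the 35 cells that had both included in each, were not tested at this setting, because a library had as few as 2 and 1 positive cells. Progenitor-marker cells thinned to 2000 UMIs gave 0 calls among 2153 genes (103 higher and 112 lower at an unadjusted edgeR p under 0.05), and with another draw 1 of 633 genes was lower. Of the 39 positive progenitor-marker cells 79.5% had *Nvath-like* and 41.0% *Nvmyc1*, against 55.3% and 49.5% of the 626 negative ones. Of the 18 positive *NvLWamide* cells 44.4% had *NvashA*, against 30.9% of the 592 negative ones.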

How the data were processed

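Single cell RNAseq libraries of 1 pool of gastrulae were read as the authors deposited them, as raw UMI counts per gene and cell barcode without normalization. The authors ran CellRanger with default parameters on introns and exons of the genome annotation. The paper's text, the submitters' processing notes (Cell Ranger 7.1.1) and the headers of the matrices (6.1.2) name different versions, and the sources used here do not give the genome build. No annotation at hand matched the IDs of the tables. Names of genes therefore come from the study's marker list, and *NvNgal* was not analysed here.

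Libraries were joined by gene ID. Barcodes with at least 500 genes were thinned without replacement to 1000 UMIs (Python 3.11.15, numpy 2.4.6), which 82.5% to 93.2% of them reached per library. Classes were exclusive and set on thinned cells, *Nvncol1* first. Clusters were made with Seurat 5.3.0 in R 4.3.3 (4000 variable genes less the listed markers, 30 components, resolution 0.5) at this setting alone, with cells over 10% mitochondrial UMIs (10 genes) left out and no low-quality cluster removed. Sums per library were tested with edgeR 4.0.16 (TMM, filterByExpr, *Nvnanos* taken out), and DESeq2 1.42.0 was an alternative. SE is the absolute log2 fold change over the square root of F. The test was checked on simulated data with 200 genes changed by a log2 fold change of 2, in sums as large as those of the main comparison. There edgeR recovered 53% of the rises and 26% of the falls, with 6 false calls among 85. The simulated sums were drawn independently at a dispersion of 0.05, with no shift of the median and no clumping of UMIs in few cells. These rates therefore need not hold for the real sums. The smaller comparisons were not simulated. Their counts of 0 calls therefore do not show an absence of difference. The positive and negative sums were paired through their shared library, and their deviations from the group means correlated at 0.142, 0.0470, 0.0320 and 0.0954 in replicates 1 to 4.

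The gene, the classes and the lists were chosen with earlier results of these data known. Named genes were the listed markers, the 2 that rose most and the 2 that fell most among genes called and moved alike in 4 of 4 libraries, and the 2 most like *Nvnanos*. Alternatives were other depths, draws, filters, scalings and class rules, a block on library, and leaving out each library or the highest 5% of UMIs. Limits for a count of 0 rest on 3 counts and cover counting error only.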

Additional observations from a re-analysis of the deposited data

Results flagged for a closer look

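Among 26 sets of 4 libraries, 5 had a library far from the others by Dixon's 95% criterion, where chance gives about 1 in 20 for continuous values. That rate does not hold for sets of a few UMIs, as most of these are. In cells with both kinds of marker, replicate 3 stood at 500 CPM of *Nvnanos* at 1000 UMIs and at 458 CPM from all UMIs, which are the same 2 cells. In cluster 11, replicate 2 stood at 13.4 CPM against 3.58 in the nearest library. In cluster 5, replicate 1 was the lowest, at 2.62 CPM against 5.37. In cluster 15 the only *Nvnanos* UMI gave 2.22 CPM in 1 library and 0 in the others.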

How the results depend on the processing

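The level in progenitor-marker cells was 72.0 CPM with an SD of 46.7, so staying within the SD is a wide criterion. It ran from 49.1 to 88.1 CPM under the other depths, draws, filters and class rules set out at the start. The level was 24.2 CPM when classes, too, were set on all UMIs, an alternative chosen after seeing the data. *Nvncol1* cells had 6.17 CPM at 500 UMIs, 4.30 at 2000, 2 with another draw, 2.78 with classes from all UMIs, 5.52 with CPM from all UMIs and 7.89 with both. Cells without class markers had 7.57 CPM at 2000 UMIs, 6.80 with classes from all UMIs, 7.01 with CPM from all UMIs and 3.55 with both. Cluster 10 rose to 58.4 CPM without the highest 5% of UMIs and 79.7 at 1000 UMIs.

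Of the genes tested against *Nvnanos*, 22 were higher and 470 lower at 500 UMIs, 182 higher at 2000, 304 higher with sums of all UMIs, 167 higher and 111 lower with DESeq2, 129 lower with RLE and 568 lower with no filter. Restricted to cluster 9 there were 0 and 0, and outside clusters 9, 10 and 19 there was 1 higher. Leaving out 1 library gave 63 to 78 higher and 136 to 231 lower, with 136 without replicate 2 and 140 without replicate 3. With the library as a block (pairing) there were 91 higher and 265 lower, and no listed marker changed its call. *Nvelav* reversed at 500 UMIs (-0.38) and NV2g011441000.1 with all UMIs (0.23). The cause was not tested. With 186 thinned *Nvnanos* UMIs, classes of few cells are limited by counting, and all spread is technical.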
